A study of Mus musculus with 10 samples.

Results

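The 39 genes described here carry long-chain fatty acids through the heart muscle cell: 5 act in uptake and activation, 6 in storage and lipolysis, 5 in the carnitine shuttle, 17 in mitochondrial beta-oxidation, and 6 regulate the pathway or handle its overflow. They were taken by gene symbol, as a named list, from the 55401 genes of the deposited tables, and all 39 were found there. RNA of the left ventricle (LV) was sequenced from 10 mice, 5 nAAC and 5 sham, all WT (C57BL/6 background) and 4 weeks old, with 1 library per mouse. In nAAC, or neonatal ascending aorta constriction, the aorta of a newborn pup was narrowed by surgery, so that the LV then worked against a raised pressure. Sham pups had sham surgery, females and males were assigned at random, and pups of both groups stayed with their mothers. Each library is called by its group and the replicate number in its label (nAAC 1 to nAAC 5, sham 1 to sham 5). The labels give nothing further on litter or day, so the p-values measure the spread between these 10 mice.

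The adult heart draws most of its energy from fatty acids. Lipoprotein lipase frees them from circulating triglyceride, membrane and cytosolic carriers bring them into the cell, and an acyl-CoA synthetase activates them. They are then stored as triglyceride or passed through the carnitine shuttle into the mitochondrion, where repeated rounds of beta-oxidation cut them to acetyl-CoA. Much of this gene programme is switched on after birth under PPAR, ERR and PGC-1 factors, and the pathway is well known for being turned down in hypertrophied hearts.

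Many fatty acid genes were lower in the nAAC LV, most of them enzymes of beta-oxidation. In limma on log2(FPKM + 1), with Benjamini-Hochberg adjustment over the 11867 genes whose FPKM averaged 1 or more, 19 of the 39 members had an adjusted p below 0.05 with a lower level in nAAC, and 0 had one with a higher level. FPKM scales fragments by transcript length and library total, so levels of different genes can be set side by side. At an unadjusted p under 0.05 limma gave 27 members lower and 0 higher, and the two-sided exact permutation test of each gene (smallest possible p 0.0079 with 5 against 5) gave 23 lower and 0 higher. The background was uneven: at an adjusted p below 0.05, 4.6% of all genes tested were called lower and 27.1% higher. No share of all genes was taken at an unadjusted or permutation p under 0.05, here or below, so those counts have no background. All 5 nAAC values lay below all 5 sham values for 18 members, against 3.46% of all genes tested, and above them for 0 members, against 18.9%. With the further requirement of a log2 fold change (FC) below -1 there were 3 members, Acaa2, Slc27a1 and Ucp3, where 0.893% of all genes met it, and 0 members with a log2 FC above 1, where 5.01% did. By step, 4 of 5 uptake and activation genes were called lower, 0 of 6 storage and lipolysis genes, 2 of 5 carnitine shuttle genes, 11 of 17 beta-oxidation genes, and 2 of 6 regulators. These counts depended on the scaling. After median-ratio scaling they were 4, 4, 4, 16 and 5 in the same order, where 12.1% of all genes were called lower. On TPM they were 2, 0, 1, 10 and 2, or 15 members lower and 1 higher at a background of 2.9% and 41.9%.

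**Figure D1:**
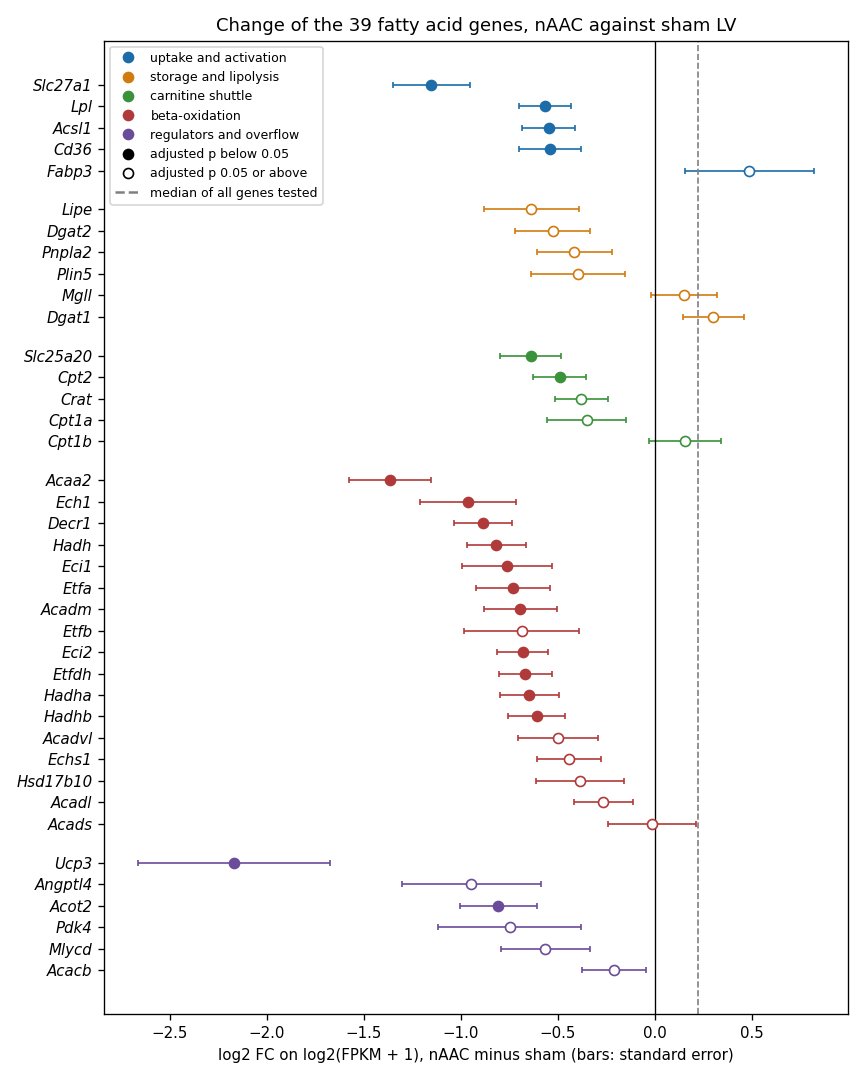
Log2 FC of each of the 39 genes (nAAC minus sham, log2(FPKM + 1) scale, n = 5 mice per group) with its standard error, grouped and coloured by step. Filled circles have an adjusted p below 0.05 and all 19 lie left of 0, while the open circles of Fabp3, Dgat1, Mgll and Cpt1b lie to the right, and the dashed line is the median of all genes tested at 0.22.

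All fold changes below are differences of mean log2(FPKM + 1), which shrinks the change of genes near 0. On it, the median of all 11867 genes tested was 0.22 above 0, and each member can be read against that shift: the members' median was -0.57, or -0.79 relative to all genes. A negative log2 FC was found for 35 of 39 members and for 23.41% of all genes tested. The 4 positive members were Fabp3, Dgat1, Mgll and Cpt1b, of which Mgll and Cpt1b turned negative after median-ratio scaling and Dgat1, Mgll and Cpt1b after removal of the length and GC trend. Median-ratio scaling, which sets the median of all genes near 0, gave 33 members lower and 0 higher, at a background of 12.1% lower and 13.2% higher. The 6 members it did not call were Fabp3, Mgll, Dgat1, Cpt1b, Acads and Pdk4. The members are abundant transcripts, with 18 above a mean of 100 FPKM. Among the 408 nuclear genes above 100 FPKM the median log2 FC was 0.09 and 9.31% were called lower, and 12 of the 18 abundant members were called lower.

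**Figure D2:**
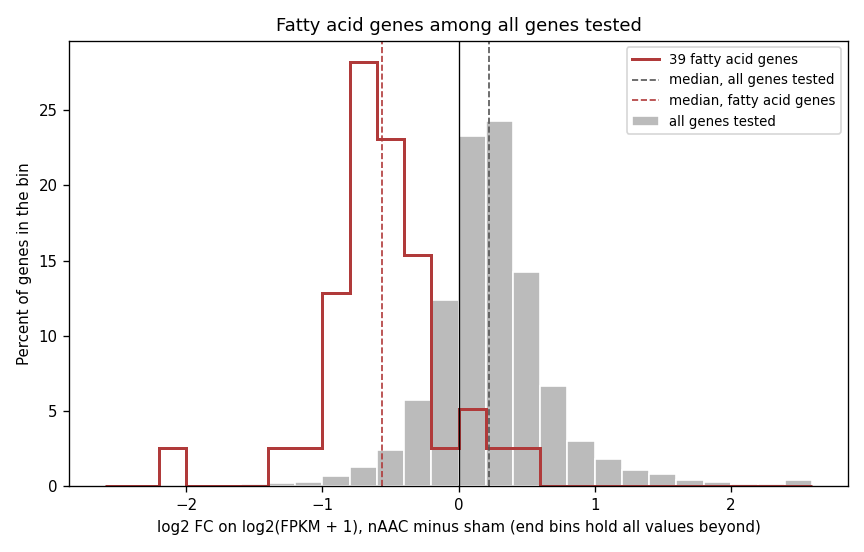
Distribution of log2 FC (x axis, nAAC minus sham, bins of 0.2) for all 11867 genes tested (grey bars) and for the 39 fatty acid genes (red outline), each as a percent of its own number (y axis). The dashed lines are the medians, 0.22 for all genes and -0.57 for the fatty acid genes.

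Several features of the libraries are given with the values below, and their part in the results was not tested unless a value is given. The depth, estimated because the files hold no read counts, was 4.86 to 6.82 gigabases in nAAC and 5.06 to 5.24 in sham. Genes of the mitochondrial genome took 32.8 to 39.9% of TPM in nAAC and 33.7 to 49.8% in sham. Sham 4 stood apart on the second principal component (-45.2, against -15.1 to 21.1 in the other 9 libraries) and had the strongest tie between transcript length and deviation (Spearman's rho -0.66 across genes, against -0.32 to 0.47 in the other 9 libraries). Without sham 4, 19 members were called lower and 2 higher, at a background of 5.23% and 33.1%. Xist, transcribed from the inactive X chromosome of female cells, was at 17.2, 0.02, 14.8, 16.6 and 17.9 FPKM in nAAC 1 to 5 and at 0, 0.02, 0.004, 3.70 and 10.6 in sham 1 to 5. It was high in 4 of 5 nAAC mice and in sham 5, intermediate in sham 4, and near 0 in nAAC 2 and sham 1 to 3. Xist was thus unevenly spread over the groups, and the labels do not give sex. With Xist as a covariate 22 members were called lower and 0 higher (background 3.29% and 13.4%). Of 12 cardiomyocyte markers, 2 were lower and 2 higher in nAAC, at a background of 4.6% and 27.1%. Tnni3 and Pln were lower (log2 FC -0.82 and -0.86), Actn2 and Mybpc3 were higher (0.67 and 0.86), and Tnnt2, Myh6 and Ryr2 were among those not called. The Tnni3 call was lost with no filter on low values (limma adjusted p = 0.0640), and that of Actn2 with Xist as a covariate (0.0578). The summed FPKM of the 12 markers was 16827 to 27677 in nAAC and 19034 to 39436 in sham. Genes on the opposite strand with a mean of at least 0.5 FPKM overlap part of Fabp3, Crat, Acadvl, Echs1 and Etfdh, and those reads cannot be told apart if strand was not used. The mean of the cardiomyocyte markers, which includes genes called in both directions, was also used as a covariate. With it 30 members were lower, at a background of 6.7%. In whole LV tissue, fewer cells of a type and less RNA per cell cannot be told apart.

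Uptake and activation was lower at 4 of its 5 genes, by about the same amount in 3 of them and most at the transporter Slc27a1, while the most abundant gene of the whole pathway, Fabp3, was not called. Cd36, the fatty acid translocase of the cell surface (chr5:17781690-17888801, GRCm38, minus strand), was at 366, 282, 261, 399 and 366 FPKM in nAAC 1 to 5 and at 421, 488, 505, 435 and 567 FPKM in sham 1 to 5. The groups did not overlap, and nAAC 4 and sham 1 were the nearest values. Cd36 fell by 0.54 ± 0.16 (SE) on the log2 scale (limma adjusted p = 0.0211). The call was lost on TPM (adjusted p = 0.105) and without nAAC 2, nAAC 3 or sham 3 (adjusted p = 0.0561, 0.0597 and 0.0503 in limma). Slc27a1, or FATP1, a transport protein that also activates fatty acids (chr8:71568882-71587302, plus strand), measured 20.6, 20.1, 17.2, 25.9 and 17.8 FPKM in nAAC 1 to 5 against 51.2, 30.9, 38.5, 47.1 and 70.7 FPKM in sham 1 to 5. Its highest nAAC value was below its lowest sham value, in sham 2, and sham 5 was the highest mouse. Slc27a1 fell by 1.15 ± 0.20 (limma adjusted p = 0.000769), to 42.6% of the sham mean.

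Acsl1, the long-chain acyl-CoA synthetase of heart (chr8:46471037-46536051, plus strand), was at 115, 134, 98.3, 148 and 129 FPKM in nAAC 1 to 5 and at 170.4, 171, 181, 178 and 206 FPKM in sham 1 to 5. The sham mice were tightly grouped, with a coefficient of variation of 7.93%, and every one was above nAAC 4, the highest nAAC mouse. Acsl1 fell by 0.55 ± 0.14 (limma adjusted p = 0.00905), a call that was lost on TPM (adjusted p = 0.0623). Lpl, the lipoprotein lipase that frees fatty acids from circulating triglyceride (chr8:68880491-68907448, plus strand), was at 653, 642, 603, 562 and 526 FPKM in nAAC 1 to 5 and 797, 863, 949, 845 and 961 FPKM in sham 1 to 5. It had the smallest spread of the step in the nAAC mice (8.99% of the mean), and its groups were well apart. Lpl fell by 0.56 ± 0.13 (limma adjusted p = 0.00657). Fabp3, the fatty acid-binding protein of heart cytosol (chr4:130308595-130315463, plus strand), was at 1314, 3203, 2401, 2544 and 2063 FPKM in nAAC 1 to 5 and at 1043, 1096, 1199.9, 3335 and 2133 FPKM in sham 1 to 5. The groups overlapped only through sham 5, which lay within the nAAC range, and sham 4, the highest mouse. Sham 1, 2 and 3 lay below every nAAC mouse. Fabp3 had a log2 FC of 0.49 ± 0.33 (limma adjusted p = 0.277), and without sham 4 one of 0.76 (adjusted p = 0.0424). With Fabp3 included, the summed FPKM of the step in nAAC was 101% of that in sham. Of 10 endothelial markers, a cell type that also carries Cd36, 0 were lower and 3 higher in limma (0 and 5 at an unadjusted p under 0.05). The share of all genes called at an adjusted p below 0.05 was 4.6% lower and 27.1% higher. Summed FPKM of these markers was 245 to 397 in nAAC and 209 to 318 in sham. After median-ratio scaling 1 of them, Vwf, was higher, where 13.2% of all genes were.

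Storage and lipolysis gave 0 calls in either direction in limma, where 4.6% of all genes were called lower and 27.1% higher. At an unadjusted p under 0.05 limma gave 2 genes lower and 0 higher, and the exact permutation test gave 1 lower and 0 higher. The median log2 FC over the 6 genes of the step was -0.40. After median-ratio scaling 4 of the 6 were called lower, as were 12.1% of all genes. Pnpla2, or ATGL, which takes the first fatty acid off stored triglyceride and was the most abundant gene of the step (chr7:141455198-141460743, plus strand), was at 74.6, 85.4, 82.2, 94.9 and 72.7 FPKM in nAAC 1 to 5 and at 116, 79.1, 90.1, 105 and 178 FPKM in sham 1 to 5. Sham 2 and sham 3 lay within the nAAC range, and sham 5 stood far above all other mice. Pnpla2 had a log2 FC of -0.41 ± 0.19 (limma adjusted p = 0.120). Lipe, the hormone-sensitive lipase of the next cut, had 9.31 ± 2.68 (SD, n = 5) FPKM in nAAC and 15.5 ± 6.35 (SD, n = 5) in sham (adjusted p = 0.0627 in limma), with sham 4 and sham 5 the 2 highest mice. Mgll, the lipase of the last cut, had 29.5 ± 7.18 (SD, n = 5) and 26.1 ± 4.42 (SD, n = 5) FPKM (adjusted p = 0.514 in limma). Plin5, a lipid droplet coat protein of oxidative tissue, ranged from 24.8 to 36.3 FPKM in nAAC and from 24.6 to 59.6 in sham, the whole nAAC range being inside the sham range (limma adjusted p = 0.226).

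The 2 acyltransferases that finish triglyceride synthesis gave opposite signs, neither of them called. Dgat2 had 73.9 ± 15.3 (SD, n = 5) FPKM in nAAC and 108 ± 27.5 (SD, n = 5) in sham, with a log2 FC of -0.53 (limma adjusted p = 0.0536). Dgat1 had 7.66 ± 0.723 (SD, n = 5) and 6.19 ± 1.96 (SD, n = 5) FPKM, with a log2 FC of 0.30 (limma adjusted p = 0.160). For Dgat1, sham 1, 2 and 3 were below every nAAC mouse, sham 5 was below nAAC 1 as well, and sham 4 was above them all. Without sham 4 its log2 FC was 0.45 (limma adjusted p = 0.00748), and it was also called higher on TPM (adjusted p = 0.0426). The 8 adipocyte markers, which include Adipoq and Plin1, were near 0 throughout: the highest mean was 0.664 FPKM, their sum was 0 to 1.19 FPKM in nAAC and 0.653 to 5.24 in sham, and none passed the filter on low values.

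In the carnitine shuttle, the translocase and the inner enzyme fell, and the entry enzymes were not called, although Cpt1a was after median-ratio scaling (limma adjusted p = 0.0213). Slc25a20, which exchanges acylcarnitine for carnitine across the inner membrane (chr9:108662088-108684641, plus strand), was at 38.1, 52.8, 37.9, 51.9 and 40.0 FPKM in nAAC 1 to 5 and at 62.1, 58.5, 63.6, 90.5 and 72.9 FPKM in sham 1 to 5. The gap between nAAC 2 and sham 2, the nearest mice, was small beside the sham spread, and sham 4 was highest. Slc25a20 fell by 0.64 ± 0.16 (limma adjusted p = 0.00743). Cpt2, which returns the acyl group to CoA on the inner side (chr4:107903981-107923610, minus strand), was at 38.6, 45.3, 38.4, 48.3 and 48.0 FPKM in nAAC 1 to 5 and 62.6, 53.6, 53.0, 77.7 and 63.8 FPKM in sham 1 to 5. All nAAC mice were below all sham mice here too, and sham 4 was again the highest. Cpt2 fell by 0.49 ± 0.14 (limma adjusted p = 0.0160), a call lost on TPM (adjusted p = 0.103). Crat, which buffers acetyl groups as acetylcarnitine, had 68.2 ± 6.26 (SD, n = 5) FPKM in nAAC and 89.5 ± 14.6 (SD, n = 5) in sham and did not overlap between groups either, at a limma adjusted p of 0.0527.

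Cpt1b, the muscle form of the rate-limiting entry enzyme and the most abundant gene of the shuttle (chr15:89416405-89425863, minus strand), was at 103, 149, 140.4, 149 and 128 FPKM in nAAC 1 to 5 and 115, 89.9, 94.3, 148 and 165 FPKM in sham 1 to 5. The groups overlapped widely, with sham 2 and sham 3 lowest and sham 5 highest of all mice. Cpt1b had a log2 FC of 0.16 ± 0.19 (limma adjusted p = 0.543), with the sign depending on the scaling as given above. Gm44502 spans the whole 9459 bases of Cpt1b on the same strand at a mean of 1.56 FPKM, so the counting of that gene may take reads of Cpt1b. Cpt1a, the liver form that is typical of the fetal heart, ranged from 5.85 to 14.2 FPKM in nAAC and from 9.57 to 16.9 in sham, with a log2 FC of -0.35 (limma adjusted p = 0.202). Per mouse, the log2 ratio of Cpt1a to Cpt1b was -3.77 ± 0.50 (SD, n = 5) in nAAC and -3.26 ± 0.35 (SD, n = 5) in sham. The difference of -0.51 had p = 0.119 in a two-sided exact permutation test, and p = 0.0556 without sham 4.

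Beta-oxidation held 11 of the 19 calls, with a log2 FC below 0 at 17 of 17 genes, although Acads, at -0.01, had a positive value on TPM and without sham 1, 4 or 5. The median was -0.68, or -0.90 relative to all genes, and the summed FPKM was 60.0% of that in sham. Those sums were 2162, 2946, 2439, 2753 and 2641 in nAAC 1 to 5 and 3816, 3326, 3364, 6262 and 4797 in sham 1 to 5. Sham 4 thus stood well above the other sham mice, and it held the highest sham value at 16 of the 17 genes, against 34.72% of all genes tested. The lowest nAAC value was in nAAC 1 or nAAC 3 at all 17, against 65.3% of all genes tested. Without sham 4, 11 genes of the step were called lower as well.

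**Figure D3:**
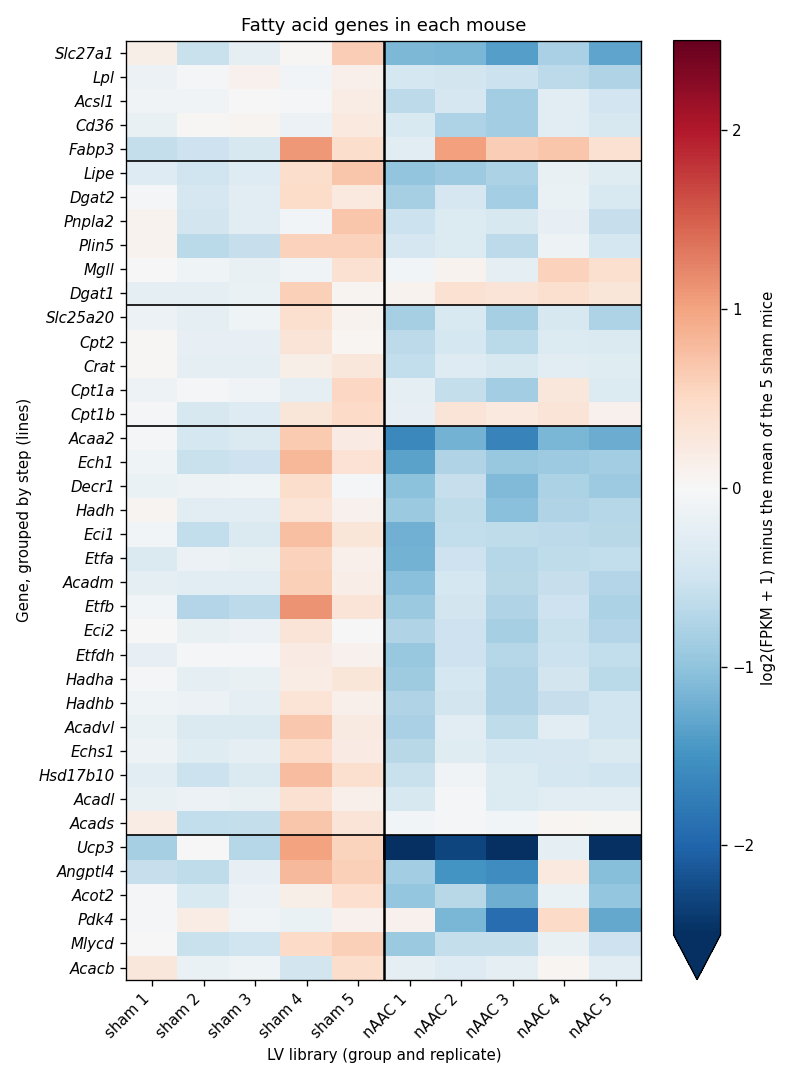
Each of the 39 genes (rows, by step) in each of the 10 LV libraries (columns), as log2(FPKM + 1) minus the mean of the 5 sham mice; red is higher and blue lower, and values below -2.5 share the darkest blue. Apart from Acads and a few near-white cells, the beta-oxidation block is blue in the nAAC mice and red in sham 4, and nAAC 4 has the highest nAAC value of Ucp3, Angptl4 and Pdk4.

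Acaa2, the thiolase that releases acetyl-CoA in the last reaction of each round, fell most of the step. Its values were 131, 179, 127, 183 and 172 FPKM in nAAC 1 to 5 and 391, 301, 314, 638 and 465 FPKM in sham 1 to 5. The highest nAAC mouse was far below the lowest sham mouse, sham 2. Acaa2 fell by 1.37 ± 0.21 (limma adjusted p = 0.000358), to 37.6% of the sham mean, and by 1.20 without sham 4 (adjusted p = 0.000231). Acadm, the medium-chain acyl-CoA dehydrogenase of the first reaction (chr3:153922357-153944632, minus strand), was at 163, 248, 208, 225 and 203 FPKM in nAAC 1 to 5 and at 287, 278, 279, 509 and 377 FPKM in sham 1 to 5. Sham 1, 2 and 3 were close together and above every nAAC mouse, with sham 4 highest. Acadm fell by 0.69 ± 0.19 (limma adjusted p = 0.0146). The dehydrogenases of other chain lengths were not called on FPKM, but Acadvl and Acadl were called lower after median-ratio scaling (limma adjusted p = 0.00508 and 0.00854) and with the length and GC trend removed (0.000392 and 0.00915), where Acads was too (0.0164). Acadvl, for very long chains, had 201 ± 31.8 (SD, n = 5) FPKM in nAAC and 293 ± 98.3 (SD, n = 5) in sham (limma adjusted p = 0.0841). Acadl, for long chains, had 295 ± 28.8 (SD, n = 5) and 358 ± 67.3 (SD, n = 5) FPKM (limma adjusted p = 0.194). Acads, for short chains, varied little in nAAC, from 55.7 to 60.8 FPKM, and widely in sham, from 37.7 to 95.0 FPKM (limma adjusted p = 0.968).

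The trifunctional protein, which carries out the later reactions on long chains, fell at both of its subunits. Hadha, the alpha subunit (chr5:30118304-30155162, minus strand), was at 120.4, 164, 132, 162 and 140.0 FPKM in nAAC 1 to 5 and 218, 189, 196, 255 and 276 FPKM in sham 1 to 5. Hadhb, the beta subunit (chr5:30155248-30184593, plus strand), was at 269, 329, 267, 303 and 321 FPKM in nAAC 1 to 5 and 421, 409.6, 388, 574 and 495 FPKM in sham 1 to 5. Neither gene overlapped between the groups. Hadha fell by 0.65 ± 0.15 (limma adjusted p = 0.00600), and Hadhb by 0.61 ± 0.15 (limma adjusted p = 0.00747). The FPKM ratio of Hadhb to Hadha was 2.08 ± 0.18 (SD, n = 5) in nAAC and 2.03 ± 0.18 (SD, n = 5) in sham. Both genes are read outward from a common interval, which is shown because both starts flank it. It holds 85 bases at chr5:30155163-30155247 (GRCm38.p6, written on the plus strand, from Hadha to Hadhb, RefSeq), of which 69.4% are G or C, in lower case throughout because the AGGTCA hexamer searched below does not occur in it.
between Hadha and Hadhb: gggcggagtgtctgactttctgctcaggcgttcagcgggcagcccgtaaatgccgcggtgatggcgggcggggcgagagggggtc

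Hadh, the hydroxyacyl-CoA dehydrogenase for shorter chains (chr3:131233419-131272101, minus strand), was at 112, 137, 103, 127 and 129.8 FPKM in nAAC 1 to 5 and 226, 179, 179, 273 and 229.6 FPKM in sham 1 to 5. Sham 2 and sham 3 were the lowest sham mice and were still well above nAAC 2, the highest nAAC mouse. Hadh fell by 0.82 ± 0.15 (limma adjusted p = 0.00137). Etfa, a subunit of the flavoprotein that takes electrons from the dehydrogenases (chr9:55454508-55512243, minus strand), was at 130.0, 207, 179.6, 191 and 194 FPKM in nAAC 1 to 5 and at 229.8, 266, 259, 442 and 325 FPKM in sham 1 to 5. The nearest mice were nAAC 2 and sham 1, and sham 4 was highest. Etfa fell by 0.73 ± 0.19 (limma adjusted p = 0.0117). Etfdh, which passes these electrons to ubiquinone (chr3:79603788-79629500, minus strand), was at 93.5, 127, 111, 125 and 119 FPKM in nAAC 1 to 5 and 158, 175, 175, 210.0 and 197 FPKM in sham 1 to 5. Its sham mice varied less than those of any other gene of the step (11.2% of the mean), and the groups were apart. Etfdh fell by 0.67 ± 0.13 (limma adjusted p = 0.00241). Etfb, the partner subunit of Etfa, had a similar log2 FC of -0.68 but was not called (SE 0.30, limma adjusted p = 0.0947): it ranged from 156 to 215 FPKM in nAAC and from 178 to 644 in sham. Etfbl overlaps Etfb on the same strand at a mean of 0.352 FPKM, so reads may be shared.

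The auxiliary enzymes that prepare unsaturated fatty acids for oxidation fell at 4 of 4 genes. Decr1, the dienoyl-CoA reductase (chr4:15917240-15945507, minus strand), was at 44.1, 60.6, 41.8, 52.1 and 48.3 FPKM in nAAC 1 to 5 and 81.6, 83.8, 84.7, 124 and 89.0 FPKM in sham 1 to 5. The sham mice other than sham 4 were close to each other and above all nAAC mice. Decr1 fell by 0.89 ± 0.15 (limma adjusted p = 0.000744). Ech1, a dienoyl-CoA isomerase and by its mean over all mice the most abundant gene of the step (chr7:28825217-28832247, plus strand), was at 192, 289, 251, 257 and 266 FPKM in nAAC 1 to 5 and 449, 331, 340.4, 866 and 623 FPKM in sham 1 to 5. Its sham values spread widely, from sham 2 to sham 4, without meeting the nAAC range. Ech1 fell by 0.96 ± 0.25 (limma adjusted p = 0.0105), and by 0.76 without sham 4 (adjusted p = 0.00987). Eci2, an enoyl-CoA isomerase (chr13:34977748-35027096, minus strand), was at 54.6, 64.5, 52.0, 63.0 and 55.5 FPKM in nAAC 1 to 5 and 92.9, 81.8, 83.9, 117 and 93.8 FPKM in sham 1 to 5. Every sham mouse exceeded nAAC 2, the highest nAAC mouse. Eci2 fell by 0.68 ± 0.13 (limma adjusted p = 0.00180).

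Eci1, the other enoyl-CoA isomerase (chr17:24426641-24439348, plus strand), was at 64.7, 98.4, 96.4, 95.0 and 93.3 FPKM in nAAC 1 to 5 and 144, 97.8, 117, 255 and 185 FPKM in sham 1 to 5. Here sham 2 fell just below nAAC 2, so the groups overlapped at 1 mouse, and nAAC 1 was the lowest by far. Eci1 fell by 0.76 ± 0.23 (limma adjusted p = 0.0252). That call was lost on TPM (adjusted p = 0.0665), with no filter on low values (0.0736), without nAAC 1 (0.0584) and without sham 5 (0.0517). The 2 remaining enzymes of the step, neither called, were Echs1 and Hsd17b10. Echs1, the short-chain enoyl-CoA hydratase, had 123 ± 12.1 (SD, n = 5) FPKM in nAAC and 171 ± 41.5 (SD, n = 5) in sham without overlap (limma adjusted p = 0.0576). Hsd17b10, a dehydrogenase of short and branched chains, had 51.3 ± 7.03 (SD, n = 5) and 71.1 ± 29.1 (SD, n = 5) FPKM (limma adjusted p = 0.210).

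**Figure D4:**
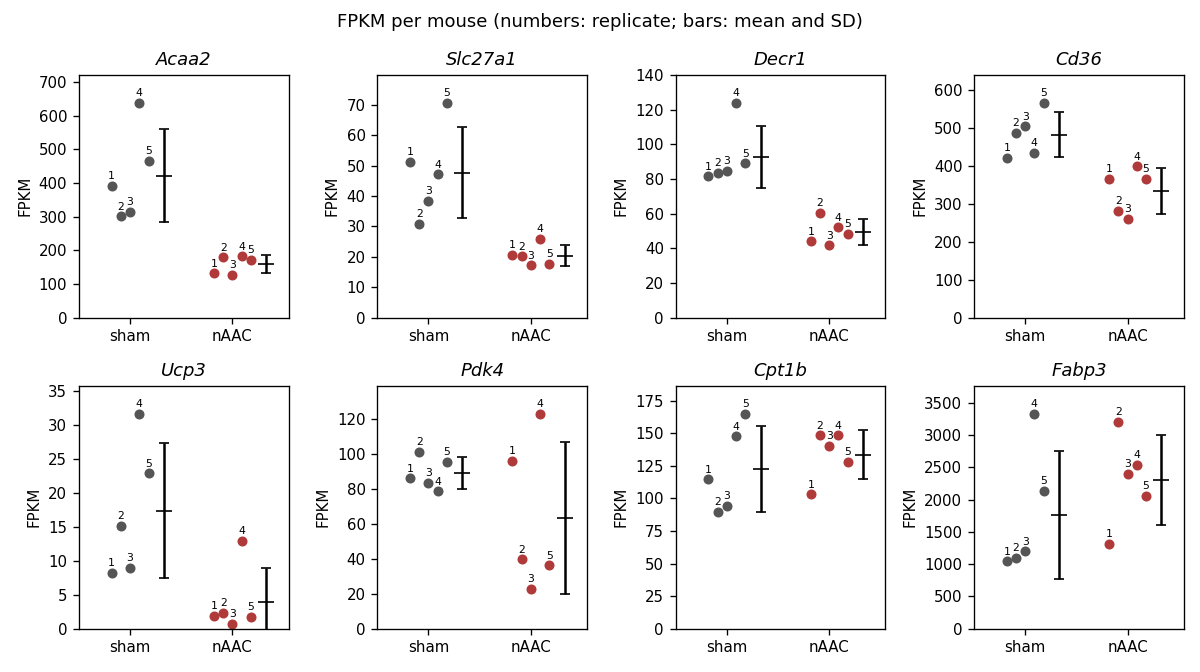
FPKM (y axes, each from 0) of 8 genes in each mouse, sham in grey and nAAC in red, with the replicate number above each point and the mean and SD (n = 5) as a black bar beside each group. Acaa2, Slc27a1, Decr1 and Cd36 do not overlap between groups, whereas nAAC 4 lies within the sham range for Ucp3 and above it for Pdk4. Cpt1b overlaps widely, and Fabp3 overlaps through sham 4 and sham 5. The lower SD bar of Ucp3 in nAAC ends at 0 because its SD is larger than its mean.

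Among the regulators and overflow genes, Ucp3 and Acot2 fell, and both showed nAAC 4 as the highest nAAC mouse. Ucp3, a mitochondrial carrier of muscle that rises with fatty acid supply (chr7:100472990-100486432, plus strand), was at 1.92, 2.31, 0.729, 12.9 and 1.72 FPKM in nAAC 1 to 5 and 8.23, 15.2, 8.99, 31.7 and 22.9 FPKM in sham 1 to 5. Of the nAAC mice, 4 were below every sham mouse, and nAAC 4 was between sham 3 and sham 2. Ucp3 fell by 2.17 ± 0.50 (limma adjusted p = 0.00516), the largest change of the 39 members, and by 1.92 without sham 4 (adjusted p = 0.0108). Its upstream window is shown because it was the one member window with 2 copies of the AGGTCA hexamer, the core that PPAR, ERR and other nuclear receptors bind. It lies at chr7:100472741-100472989 (GRCm38.p6, plus strand, RefSeq, 249 bases ending just before the start of the gene in the tables), with the hexamers in capitals. Those copies begin 149 and 44 bases before the RefSeq start.
Ucp3 upstream: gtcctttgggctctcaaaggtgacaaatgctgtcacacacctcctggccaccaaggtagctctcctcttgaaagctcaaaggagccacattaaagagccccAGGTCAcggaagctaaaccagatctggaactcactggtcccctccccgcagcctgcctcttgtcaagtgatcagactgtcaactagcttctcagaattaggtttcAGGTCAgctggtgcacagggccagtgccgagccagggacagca

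Acot2, a mitochondrial thioesterase that frees fatty acids from CoA (chr12:83987861-83993873, plus strand), was at 15.5, 18.9, 12.9, 27.8 and 15.5 FPKM in nAAC 1 to 5 and 30.6, 23.9, 28.3, 34.9 and 42.1 FPKM in sham 1 to 5. Only nAAC 4 reached into the sham range, above sham 2. Acot2 fell by 0.81 ± 0.20 (limma adjusted p = 0.00801). Acot1, its cytosolic paralog and not a member, was at 2.25, 2.93, 2.15, 5.73 and 3.01 FPKM in nAAC 1 to 5 and at 15.6, 11.1, 15.1, 18.1 and 27.2 in sham 1 to 5. Acot1 fell by 2.13 ± 0.24 (SE; limma adjusted p = 2.5e-05). The 2 transcripts are 93.8% identical over 1337 aligned positions, so reads may be split between them and each value is uncertain. The FPKM ratio of Acot1 to Acot2 was 0.145 to 0.206 in nAAC and 0.464 to 0.645 in sham.

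Pdk4, the kinase that shuts pyruvate out of oxidation when fatty acids are burned and the most abundant gene of the group (chr6:5483351-5496309, minus strand), was at 96.0, 39.6, 22.8, 123 and 36.1 FPKM in nAAC 1 to 5 and 86.0, 101, 83.4, 78.5 and 95.3 FPKM in sham 1 to 5. The nAAC mice were split, with nAAC 2, 3 and 5 below every sham mouse, nAAC 1 within the sham range and nAAC 4 above it. Pdk4 had a log2 FC of -0.75 ± 0.37 (limma adjusted p = 0.139) and was called lower without nAAC 4 (limma adjusted p = 0.0293). Angptl4, a secreted inhibitor of lipoprotein lipase, was low throughout, at 1.12, 0.382, 0.311, 3.61 and 0.849 FPKM in nAAC 1 to 5 and 1.60, 1.48, 2.38, 5.76 and 4.87 FPKM in sham 1 to 5. As with Ucp3, nAAC 4 was the highest nAAC mouse and the only one above a sham mouse, and the limma adjusted p was 0.0596. Mlycd, which breaks down malonyl-CoA, the inhibitor of carnitine entry, had 24.7 ± 4.79 (SD, n = 5) FPKM in nAAC and 38.6 ± 14.3 (SD, n = 5) in sham (limma adjusted p = 0.0772). Acacb, which makes that malonyl-CoA, had 19.0 ± 2.20 (SD, n = 5) and 22.6 ± 6.01 (SD, n = 5) FPKM (limma adjusted p = 0.353).

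The highest and lowest mice of each group are set here beside the same shares over all genes tested, which were uneven too. In the sham group, sham 4 held the highest value of 23 members and sham 5 of 15, against 34.72% and 34.38% of all genes. In the nAAC group, nAAC 1 and nAAC 3 held the lowest value of 18 members each, against 38.91% and 26.38% of all genes. The highest nAAC value was in nAAC 4 for 21 members and for 43.16% of all genes, and nAAC 4 also had the largest median-ratio scaling factor of the 10 libraries (1.23). Cpt1a, too, was highest in nAAC 4 of the nAAC mice, at 14.2 FPKM.

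Beyond the 39 members, 97 other genes of fatty acid handling were looked up, of which 87 passed the filter, 11 were called lower and 14 higher, against the background of 4.6% lower and 27.1% higher. After median-ratio scaling 33 were lower and 4 higher, at a background of 12.1% and 13.2%. Those named by the size of their change included Acot1, given above. In the peroxisome, Ehhadh, the bifunctional enzyme of peroxisomal beta-oxidation, fell by 0.79 (limma adjusted p = 0.00205). Pex11a, a factor of peroxisome division, fell by 0.73 (limma adjusted p = 0.00137). Fitm1, which helps lipid droplets form in muscle, fell by 0.83 (limma adjusted p = 0.0222). The Fitm1 call was lost on TPM (0.0531), with Xist as a covariate (0.0601), with no filter on low values (0.0708) and without nAAC 3, nAAC 5 or sham 1 (0.0504, 0.0549 and 0.0527; limma adjusted p). Cidea, a lipid droplet protein, rose by 0.97 (limma adjusted p = 0.0178), from 10.2 ± 5.26 (SD, n = 5) FPKM in sham to 19.4 ± 3.95 (SD, n = 5) in nAAC. The Cidea call was lost after median-ratio scaling (limma adjusted p = 0.0550), with Xist as a covariate (0.143) and with no filter on low values (0.0655). Cpt1c, the brain form of the entry enzyme, rose by 0.78 at low levels, from 0.612 ± 0.176 (SD, n = 5) to 1.78 ± 0.333 (SD, n = 5) FPKM (limma adjusted p = 0.000313). Lpin2, a phosphatidate phosphatase of triglyceride synthesis, rose by 0.69 at low levels, from 1.10 ± 0.268 (SD, n = 5) to 2.40 ± 0.528 (SD, n = 5) FPKM (limma adjusted p = 0.00180).

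Promoter sequence was compared across the members that had a window in RefSeq, 31 of the 39. The hexamer AGGTCA, on either strand, occurred in the 250 bases before a RefSeq start of 7 of these 31 genes (22.6%), and in 15.8% of 27025 genes with such a window. A longer form that ERR factors prefer, TNAAGGTCA, occurred in 0 of 31 and in 1.3% of all genes, and a direct repeat of the kind that PPAR and RXR bind as a pair, AGGNCA followed by any base and AGGNCA again, in 0 of 31 and 0.4%. Both motifs contain or can contain the hexamer. The 7 genes include called (Cd36, Acadm, Ucp3) and uncalled members (Plin5, Cpt1a, Acadvl, Echs1). A match is a description of letters and shows no binding. The stretches around each match outside Ucp3 are shown so that the hexamers can be compared, 5′ to 3′ along the strand of the gene, with the hexamer in capitals (TGACCT where it lies on the opposite strand). Their places in GRCm38.p6 are chr5:17836107-17836136 for Cd36, chr3:153944875-153944893 for Acadm, chr17:56117701-56117730 for Plin5, chr19:3323195-3323224 for Cpt1a, chr11:70015498-70015527 for Acadvl and chr7:140116487-140116516 for Echs1. For Cd36 and Cpt1a the RefSeq start lies 52905 and 967 bases inside the gene as the deposited tables span it, so those 2 stretches are within the gene, outside annotated exons, and do not precede its outermost start.
Cd36: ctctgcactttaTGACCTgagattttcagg
Acadm: gTGACCTtcgggctccggt
Plin5: agtcctagtctgAGGTCAgccatggtgact
Cpt1a: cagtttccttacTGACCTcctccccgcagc
Acadvl: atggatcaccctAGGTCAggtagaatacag
Echs1: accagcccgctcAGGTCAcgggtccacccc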

How the data were processed

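RNA was extracted by Trizol from LV tissue of each mouse, and libraries were made with the NEBNext Ultra RNA kit. The deposited table of each library lists coverage, FPKM and TPM per gene, as the authors computed them, with mm10 given as the build in the submitters' processing notes. The aligner, the counter, the use of strand and the RNA-seq test are not given in the sources used here. Gene coordinates were identical to GENCODE M21 (GRCm38) for 99.42% of 55141 shared genes and for all 39 members. Rows sharing an identifier were summed. FPKM was the main unit. The deposited TPM served as an alternative, and the deposited coverage signal gave the estimate of depth. That estimate, in gigabases, is the inverse of the value at which FPKM divided by coverage was most often found. Such a value held for 15.1 to 16.7% of genes with an FPKM above 1 in a library. No read counts were used, so a count model did not apply.

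The 11867 genes whose FPKM averaged 1 or more over the 10 mice were compared on log2(FPKM + 1) in limma 3.58.1 (R 4.3.3; lmFit and eBayes with trend, no covariate), with Benjamini-Hochberg adjustment over all of them and an adjusted p below 0.05 as a call; a differentially expressed gene (DEG) also needed an absolute log2 FC above 1. Single values were tested by two-sided exact permutation over all splits of the mice into groups of the same sizes (Python 3.11.15). The model was tested on simulated data. The members, the lists of other genes and of markers, and the tests were chosen with earlier results of these data known. All members are named. Values of each mouse are given for members with a call and for the most abundant member of each step. Of the other pathway genes, the 8 with the largest change among those called are named, with Acot1, except 1 that is not reported here. The alternatives tried were TPM, scaling by median ratios or upper quartiles, totals without mitochondrial genes, a pseudocount of 0.1, no filter, the replicate number as a block, Xist, Myl7 or cardiomyocyte markers as a covariate, removal of a length and GC trend, and leaving out each mouse. Promoter windows and starts are from RefSeq (GRCm38.p6).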

Additional observations from a re-analysis of the deposited data

Results flagged for a closer look

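In 5 of 90 groups of 5 log2 values (chance alone gives about 1 in 20), a mouse stood apart from the others of its group by more of the group's range than Dixon's critical share of 0.71. For Eci1, nAAC 1 was the lowest nAAC mouse, by 0.874 of the range. For Acacb, nAAC 4 was the highest nAAC mouse, by 0.809 of the range. Decr1 was highest in sham 4 among the sham mice, by 0.791 of the range. Cpt1a was highest in sham 5 among the sham mice, by 0.756 of the range. Dgat1 was lowest in nAAC 1 among the nAAC mice, by 0.717 of the range.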

How the results depend on the processing

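The count of members called lower (19) was 33 after median-ratio scaling (12.1% of all genes lower), 32 after upper-quartile scaling (11.5%), 34 with the length and GC trend removed (15.9%) and 30 with the cardiomyocyte markers as a covariate (6.7%). Totals without mitochondrial genes gave 27 (5.02%), and a pseudocount of 0.1 gave 20 (4.54%). It was 15 on TPM (2.9%) and 18 with no filter on low values (2.13%). It was 18 to 26 when each mouse was left out (3.59 to 5.23% of all genes), 26 being without sham 2 (4.19%). The count called higher (0) was 1 on TPM (Dgat1), where 41.9% of all genes were higher. It was 0 to 2 when each mouse was left out (20.2 to 33.1% of all genes), 2 being without sham 4 (Fabp3 and Dgat1, at 33.1%). Members that were DEGs with a lower level in nAAC numbered 3, at 0.893% of all genes. In the order of the first 4 settings they numbered 10, 9, 12 and 5, at 1.74%, 1.69%, 1.74% and 0.961% of all genes. They numbered 6 with Xist as a covariate (1.06%) and 2 on TPM (0.809%). With each mouse left out they numbered 2 to 5, being 5 without nAAC 4 (1.04%) or sham 2 (0.961%) and 2 without sham 5 (0.851%). Other pathway genes called lower (11) numbered 33, 33, 37 and 20 in the same order and 7 with TPM (2.9% of all genes) or Xist (3.29%). Those called higher (14, at 27.1% of all genes) numbered 4, 5 and 7 under both scalings and the trend removal (13.2%, 13.7% and 14.2%). They numbered 6 with Xist (13.4%), 18 on TPM (41.9%) and 15 with the cardiomyocyte markers as a covariate (31.8%). The log2 FC changed sign for Acads (0.16 on TPM, and 0.034, 0.16 and 0.069 without sham 1, 4 and 5, from -0.17 to 0.16 over all mice left out), for Cpt1b (-0.12, -0.11 and -0.19 under median-ratio scaling, upper-quartile scaling and trend removal), for Mgll (-0.12, -0.11 and -0.25) and for Dgat1 (-0.073 under trend removal). The cause of these moves was not tested; none of these sign changes involved a called member. With the replicate number as a block, 23 members were lower and 0 higher, at a background of 4.19% and 24.7%. The values gave no sign that the numbers pair the mice. With group means removed, same-numbered mice correlated at -0.32 to 0.19, and 0 of 5 nAAC mice correlated best with their own number. With 5 mice per group this check cannot settle whether the numbers mark litter or day. Of the alternative values of single genes, 714 kept their sign and side of the threshold, 84 became calls and 10 lost one. The files hold no counts, so counting error could not be separated from the spread between mice.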

Other observations

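The wider fatty acid lists gave counts that moved with the scaling. They are given on FPKM, where 4.6% of all genes were called lower and 27.1% higher and the median log2 FC of all genes was 0.22, and then after median-ratio scaling, where 12.1% were lower and 13.2% higher. Of 16 peroxisomal oxidation genes tested, 4 were called lower and 2 higher, with a median of -0.14, and then 9 lower and 1 higher. Of 17 further mitochondrial oxidation genes, 2 were lower and 1 higher (median -0.08), and then 7 and 0. Of 20 further storage and lipolysis genes, 3 were lower and 3 higher (median 0.07), and then 5 and 1. Of 13 further uptake, carriage and activation genes, 0 were lower in limma and 4 higher (1 and 4 at an unadjusted p under 0.05; median -0.11), and after median-ratio scaling 4 were lower and 0 higher. Of 16 further regulators, 1 was lower and 3 higher (median 0.06), and then 6 and 1. Of 5 further carnitine genes 1 was lower and 1 higher (median -0.03), and then 2 and 1.

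Markers of other cells were read in the same fit. The background there, for an adjusted p below 0.05, was the same 4.6% lower and 27.1% higher. Of 8 fibroblast markers 0 were lower and 4 higher in limma (0 and 6 at an unadjusted p under 0.05), and of 8 macrophage and leukocyte markers 0 were lower and 2 higher (0 and 3). After median-ratio scaling the markers higher were 2 of the fibroblast list (Tcf21 and Col1a1) and 1 of the macrophage and leukocyte list (C1qa). The share of all genes higher was then 13.2%. Of 5 atrial markers tested, 1 (Stard10) was lower and 0 higher (1 and 1). Myl7, Myl4, Sln and Nr2f2 had positive log2 FC of 0.88, 1.32, 0.89 and 0.29, none of them called (limma adjusted p = 0.528, 0.334, 0.390 and 0.0900). The summed FPKM of the atrial list was 7.69 to 237 in nAAC and 16.7 to 56.7 in sham. Myl7, the atrial myosin light chain, varied more between mice than between groups, at 0.654 to 79.8 FPKM in nAAC and 1.16 to 22.3 FPKM in sham. With Myl7 as a covariate the counts of members called were 19 lower and 0 higher, at a background of 4.1% and 24.2%.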
